A study of Mus musculus with 36 samples.

Results

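The early lymphoid effector genes examined here were Rag1, Rag2, Dntt, Il7r, Vpreb1 and Igll1, followed as regions of accessible chromatin in mouse blood progenitors. The peaks called in 36 ATAC-seq libraries were joined wherever they shared 1 bp or more, which gave 105005 regions. A region was kept where its centre was nearest, among the TSSs of protein-coding genes, to a TSS of 1 of the 6 genes, or where it lay within 50 kb of such a TSS. This gave 43 regions in 4 loci, since Rag1 and Rag2 are neighbours, as are Vpreb1 and Igll1.

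The libraries came from bone marrow of C57BL/6 mice, female per the study's methods, at 10 weeks (young) or 20 months (aged), with 20000 sorted cells per library. Hematopoietic stem cells (HSCs), sorted as Lin- and IL-7-, c-kit+ and Sca-1+, CD150+ and negative for CD34, CD48 and Flt3, had 4 libraries per age and each other fraction had 2. The multipotent progenitors differed from HSCs by CD34+ and from each other in 3 markers: MPP1 was CD150+ CD48- Flt3-, MPP2 was CD150+ CD48+ Flt3-, MPP3 was CD150- CD48+ Flt3- and MPP4 was CD150- CD48+ Flt3+. Granulocyte-macrophage progenitors (GMPs) were c-kit+ and Sca-1-, Lin- and IL-7-, with CD34+ and FcgR+, megakaryocyte-erythrocyte progenitors (MEPs) were FcgR- CD34- in the same c-kit+ gate, and common lymphoid progenitors (CLPs) were IL-7+ Lin- with low Sca-1 and c-kit. Per the methods the IL-7 marker was the receptor subunit IL-7Rα, the product of Il7r, so accessibility of Il7r was compared between fractions sorted on its own protein. The study states that marrow of mice of an age was pooled before sorting and calls the HSC libraries biological replicates, while the labels do not tie libraries to mice, so the p-values measure only the spread between these libraries.

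Early lymphocytes build antigen receptor genes by V(D)J recombination. The RAG1 and RAG2 proteins form the recombinase that cuts the gene segments, and terminal deoxynucleotidyl transferase, the product of Dntt, adds nucleotides without a template at the joints. Il7r encodes the chain of the interleukin-7 receptor that binds the cytokine needed for early lymphoid growth in mice. VpreB1 and the Igll1 product pair as the surrogate light chain of the pre-B cell receptor. MPP4 is the multipotent fraction with lymphoid bias and CLP the lymphoid progenitor.

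The deposited lists give for each peak a fold enrichment, the pileup at the summit over the local background, and no read counts. The lists held between 9581 and 63288 peaks per library, with 9581 to 11041 in MEPs, 27087 to 40157 in HSCs, MPPs and CLPs, and 52576 to 63288 in GMPs. GMPs also had the shortest smallest peak, 132 to 139 bp against 163 to 191 bp elsewhere, and a median fold enrichment of 10.2 to 10.8 against 6.74 to 8.95, so their levels are given without a comparison to other fractions gene by gene. Of 8 early lymphoid marker promoters (Il7r, Flt3, Dntt, Rag1, Rag2, Ebf1, Ly6d and Notch1), 4 to 5 were called per CLP library, 4 per GMP library, 3 to 4 per MPP4 library, 1 to 3 in HSCs, MPP1, MPP2 and MPP3, and 0 to 1 in MEPs. No promoter region of Dntt, Rag2 or Ly6d was called in any library. GMP libraries called 7 of 8 GMP marker promoters throughout, including Mpo and Elane, which had no promoter peak in any CLP library. CLP libraries called 1 to 2 of the 8, namely Fcgr3 in 4 libraries and Csf3r in 2. All 4 GMP libraries also called the promoter of Gata1, an erythroid regulator, which no library of another fraction called, and GMP libraries called 5 to 6 of 6 MEP markers and 5 to 6 of 6 HSC markers. Of the 6 MEP markers, MEP libraries all called Epor and Tfrc, 1 of 4 called Klf1, and none called Gata1, Itga2b or Gfi1b. Among 4 monocyte and dendritic cell markers, Siglech was called in all MPP4, CLP and GMP libraries. Ly6c2 was called in 1 MPP3, 2 MPP4 and all CLP and GMP libraries, and both were called in 0 of 8 HSC libraries. Itgam was called in 1 MPP1, 1 MPP2, 1 CLP and 4 GMP libraries and Xcr1 in none. Of 5 T cell markers Lck was called in 3 CLP libraries, Thy1 in 2 GMP and Cd4 in 1 MPP4, and of 3 NK cell markers Prf1 was called in 1 MPP3, 2 MPP4, 3 CLP and 3 GMP libraries, Klrb1c in 1 MPP3, 3 MPP4, 2 CLP and 3 GMP libraries and Ncr1 in none. Of 5 mature B cell markers only Pax5 was called, in 35 libraries. A part of other cell types in the CLP, MPP4 and GMP calls below was not tested. A peak from a few open cells and one from weak opening in most cells cannot be told apart in sorted populations.

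In mm10, Il7r (ENSMUSG00000003882.5) starts at 9529835 on the minus strand of chromosome 15 and Dntt (ENSMUSG00000025014.13) at 41029275 on the plus strand of chromosome 19. Rag1 (ENSMUSG00000061311.6) and Rag2 (ENSMUSG00000032864.4) are on chromosome 2. Vpreb1 (ENSMUSG00000059305.12) starts at 16869255 and Igll1 (ENSMUSG00000075370.12) at 16863985, both on the minus strand of chromosome 16. Of the 43 regions, 19 were nearest to a TSS of the genes, namely 10 at Dntt, 6 at Il7r and 3 at Igll1. No region was nearest to Rag1, Rag2 or Vpreb1. The other 24 were kept by the window alone, and 2 of the Il7r regions lay outside the window. Regions are named by their distance from the TSS of Il7r, Dntt, Rag1 (for the Rag locus) or Igll1 (for the surrogate light chain locus), negative upstream. By position, 19 were intronic, 14 intergenic, 7 at promoters and 3 in untranslated parts of exons. The windows held 15 regions at Dntt (87.1th percentile of 21842 protein-coding genes), 11 each at Rag1 and Vpreb1, 10 at Igll1, 8 at Rag2 and 4 at Il7r (28.4th percentile), with a median of 7 per gene.

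**Figure D1:**
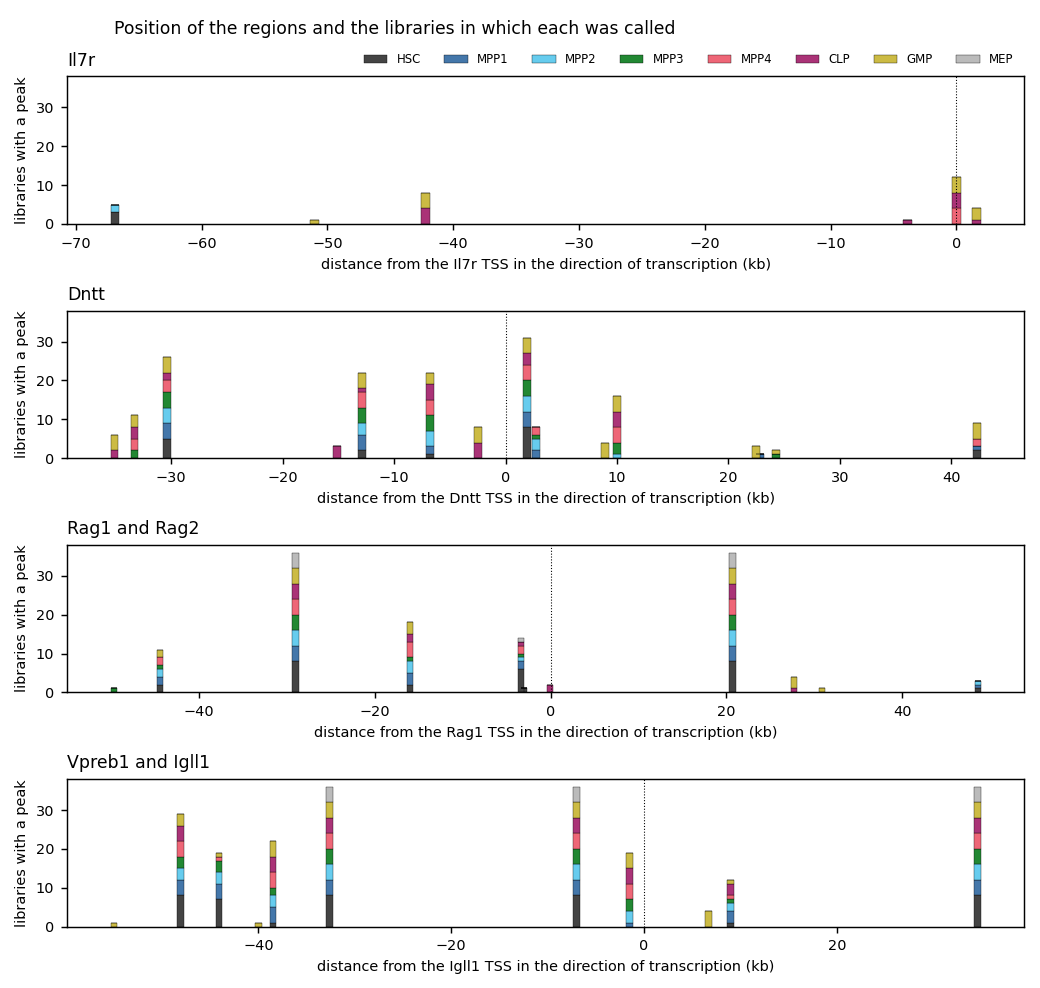
Number of libraries with a peak (vertical axis, of 36) at each region against its distance from the TSS in kb, for the 4 loci, with bars divided by fraction. Regions called in all 36 libraries stand at 2 positions of the Rag locus and 3 of the Vpreb1 and Igll1 locus, while the Il7r promoter reached 12 libraries, from MPP4s, CLPs and GMPs alone.

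The sequences on which the results turn are given here from the RefSeq genome GRCm38.p6 (the assembly of mm10), 5′ to 3′ in the direction of the gene. They are the 5 regions with a peak in all CLP and no HSC libraries, and the Rag1 promoter, the one region at a TSS of a recombinase gene. The Il7r and Rag1 stretches lie wholly upstream of every annotated transcript start, and the other 4 are 200 bases around the summit. Capitals mark matches, on either strand, to words of lymphoid factors: CAGCTG and CACCTG (E-boxes, bound by E2A), CCCNNGGG (core of EBF sites), TGTGGT (RUNX), GAGGAA (PU.1), TGGGAA (Ikaros), TTCNNNGAA (STAT) and TGTTTAC (FOXO). Matches can overlap, as an EBF and an Ikaros match in their GGG, and a STAT match can contain an Ikaros or a PU.1 word.
Il7r promoter (chr15:9529942-9530125, minus strand): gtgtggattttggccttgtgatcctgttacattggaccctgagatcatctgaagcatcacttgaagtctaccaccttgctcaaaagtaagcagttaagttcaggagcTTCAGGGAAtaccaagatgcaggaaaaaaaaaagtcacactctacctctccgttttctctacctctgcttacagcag
Il7r -42.2 kb (chr15:9571941-9572140, minus strand): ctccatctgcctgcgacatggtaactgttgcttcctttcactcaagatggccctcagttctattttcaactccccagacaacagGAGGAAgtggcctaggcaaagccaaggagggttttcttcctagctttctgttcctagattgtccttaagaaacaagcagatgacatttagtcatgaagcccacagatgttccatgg
Rag1 promoter (chr2:101649533-101649682, minus strand): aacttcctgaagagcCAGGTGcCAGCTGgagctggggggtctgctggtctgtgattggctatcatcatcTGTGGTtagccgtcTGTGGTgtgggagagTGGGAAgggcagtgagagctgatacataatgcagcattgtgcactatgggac
Dntt -2.5 kb (chr19:41026614-41026813, plus strand): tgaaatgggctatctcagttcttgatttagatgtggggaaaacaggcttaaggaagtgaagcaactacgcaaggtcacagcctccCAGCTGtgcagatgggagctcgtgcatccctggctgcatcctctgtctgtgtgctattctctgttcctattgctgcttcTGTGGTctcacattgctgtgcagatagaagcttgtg
Dntt +10.0 kb (chr19:41039219-41039418, plus strand): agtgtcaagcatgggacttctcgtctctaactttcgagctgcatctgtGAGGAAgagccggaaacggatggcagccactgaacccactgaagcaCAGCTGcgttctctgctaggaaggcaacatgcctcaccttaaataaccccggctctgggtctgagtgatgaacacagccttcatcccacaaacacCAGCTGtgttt
Igll1 -1.5 kb (chr16:16865293-16865492, minus strand): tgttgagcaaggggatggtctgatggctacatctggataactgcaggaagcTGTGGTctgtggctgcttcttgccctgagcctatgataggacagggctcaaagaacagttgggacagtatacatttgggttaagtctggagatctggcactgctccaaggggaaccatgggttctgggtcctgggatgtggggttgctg

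The Il7r promoter stretch held 1 STAT word, Il7r -42.2 kb 1 PU.1 word, Dntt -2.5 kb 1 E-box and 1 RUNX word, Dntt +10.0 kb 2 E-boxes and 1 PU.1 word, and Igll1 -1.5 kb 1 RUNX word. The Il7r stretch lies upstream of the promoter's summits and does not include them. The 200 bases around the strongest Il7r promoter summit held 1 RUNX word and 0 STAT words. The 150 bases at Rag1 held both E-box words, 2 RUNX words and 1 Ikaros word. In windows of 200 bases around the strongest summit, CAGCTG was present in 11 of 43 regions (25.6%), against 14.5% of 104825 windows of the catalogue. TGTGGT was present in 10 of 43 (23.3%) against 25.5%, GAGGAA in 15 (34.9%) against 34%, TGGGAA in 10 (23.3%) against 17.2%, CACCTG in 6 (14%) against 11.7%, CCCNNGGG in 4 (9.30%) against 7.04%, TTCNNNGAA in 2 (4.65%) against 5.70% and TGTTTAC in 0 against 2.44%. These shares describe letters and were not tested. The windows had a median GC content of 49.5%, against 50% in the catalogue, and 2 of 43 were mostly repeat sequence.

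Which of the regions were open along the lymphoid path was asked first by counting calls. Libraries called 9 to 14 of the 43 regions in HSCs, 14 to 18 in MPP1s, 13 to 18 in MPP2s and in MPP3s, 16 to 19 in MPP4s, 15 to 23 in CLPs, 22 to 28 in GMPs and 5 to 6 in MEPs. Of the 19 regions nearest to the genes, HSCs called 1 to 3, MPP1s 3 to 6, MPP2s 5 to 6 and MPP3s 4 to 6. MPP4s called 6 to 8 of them, CLPs 6 to 10, GMPs 10 to 13 and MEPs 0. Of the whole catalogue HSC, MPP and CLP libraries called 25% to 36.8%, GMPs 48.4% to 58.5% and MEPs 8.85% to 10.2%. In all 36 libraries 5 regions were called, each at a promoter or an untranslated exon part of a neighbouring gene (B230118H07Rik, Traf6, Top3b, Ppm1f and Spag6l). A single library called 8 regions. No HSC or MPP library called 15 regions (34.9%, against 32% of the catalogue). Of the 43 regions 7 were in GMPs alone (16.3%, against 24.1% of the catalogue), 3 in CLPs alone (6.98%, against 3.17%) and 5 in both alone (11.6%, against 2.98%), shares that were not tested.

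**Figure D2:**
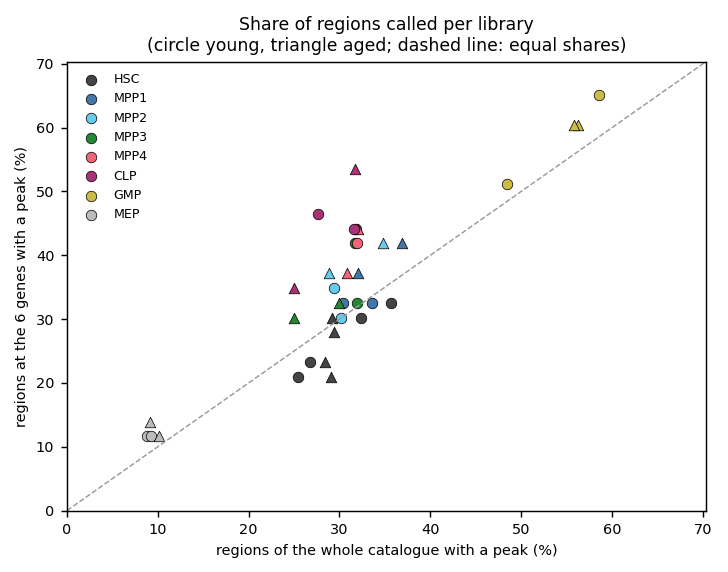
Share of the 43 regions called in each library (vertical axis, %) against the share of all catalogue regions called in it (horizontal axis, %), with the fraction by colour and the age by symbol. All libraries of CLPs, MPP4s, MPP3s, MPP2s, GMPs and MEPs and 3 of 4 of MPP1s lie above the line of equal shares, against 1 of 8 of HSCs, and the 4 GMP libraries lie at the upper right, with 48.4% to 58.5% of the catalogue called.

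MPP4 and CLP libraries together (8) were compared with the other 28 by Fisher's exact test, two-sided, adjusted after Benjamini and Hochberg over all 99670 regions that could vary. Of 38 regions tested at the 6 genes, 2 were called more often, the Il7r promoter and Dntt +10.0 kb, and 0 less often. Over the catalogue 2.39% of regions were called more often and 0.465% less often at an adjusted p under 0.05. The Il7r promoter was called in 85.7 percentage points more of the MPP4 and CLP libraries (adjusted p = 0.00404, exact test) and Dntt +10.0 kb in 71.4 points more (adjusted p = 0.0275, exact test). The median difference over the 38 regions was 0 points, against -3.57 over the catalogue. With only the 9581 strongest peaks of every library the Il7r promoter had no peak in any library, Dntt +10.0 kb did not pass (adjusted p = 0.1, exact test) and Dntt -6.8 kb did. Without the MEP libraries Dntt +10.0 kb did not pass (adjusted p = 0.0598, exact test). With only peaks of a -log10 q of at least 10 the Il7r promoter did not pass (adjusted p = 0.207, exact test), and Dntt -6.8 kb and Dntt +10.0 kb did. Without any 1 of the 4 CLP libraries only the Il7r promoter passed, and without the GMP libraries 7 of 31 did (7.13% over the catalogue): the Il7r promoter, Il7r -42.2 kb, Igll1 -1.5 kb, Igll1 -38.5 kb, Dntt -33.3 kb, Dntt -2.5 kb and Dntt +10.0 kb.

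CLPs (4 libraries) were next compared with HSCs (8). Of 26 regions tested, 5 were called more often in CLPs and 0 less often, against 7.63% and 4.77% of 52755 regions over the catalogue. These were the Il7r promoter, Il7r -42.2 kb, Dntt -2.5 kb, Dntt +10.0 kb and Igll1 -1.5 kb, each in 4 of 4 CLP and 0 of 8 HSC libraries (p = 0.00202, the smallest that this exact test can give, adjusted p = 0.0163). The median difference was 0 points for the 26 regions and -12.5 for the catalogue. A further 5 regions had an unadjusted p under 0.05 and did not pass. Among them were Dntt -6.8 kb (87.5 points, adjusted p = 0.0626, exact test) and, lower in CLPs, Igll1 -44.1 kb, an intronic region of Ppm1f (-87.5 points, adjusted p = 0.0626, exact test). With only the 9581 strongest peaks of every library 0 of 8 regions tested passed, against 7.43% of 16129 over the catalogue. With peaks of a -log10 q of at least 10, Il7r -42.2 kb and Dntt -2.5 kb did not pass (adjusted p = 0.0892, exact test) and Dntt -6.8 kb did, as it also did at 50% coverage. With peaks covering at least 50% of the region the Il7r promoter did not (adjusted p = 0.107, exact test).

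MPP4s (4 libraries) against HSCs gave 3 regions called more often of 18 tested and 0 less often, against 4.05% and 1.68% of 47788 regions over the catalogue. The Il7r promoter, Dntt +10.0 kb and Igll1 -1.5 kb were in all 4 MPP4 and 0 of 8 HSC libraries (adjusted p = 0.0352, exact test). Both comparisons share the HSC libraries. Il7r -42.2 kb and Dntt -2.5 kb, which were called in every CLP library, were called in no MPP4 library; this difference between CLPs and MPP4s was not tested. The Il7r promoter did not pass in MPP4s with peaks of a -log10 q of at least 10 (adjusted p = 0.719, exact test) or with 50% coverage (adjusted p = 0.184, exact test). Igll1 -1.5 kb was called in 3 MPP4 libraries at a -log10 q of at least 10 and did not pass there either. The MPP4 count fell to 0 without any 1 MPP4 library or without aged HSC replicate 2.

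GMPs were set against the same HSC libraries as an alternative chosen after their calls had been seen. There 13 of 31 regions were called more often in GMPs and 0 less often, where 34% of 77752 catalogue regions were. With equal numbers of peaks per library 1 of 4 regions remained, Igll1 -1.5 kb, against 14% over the catalogue. All 5 regions that separated CLPs from HSCs were among the 13.

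**Figure D3:**
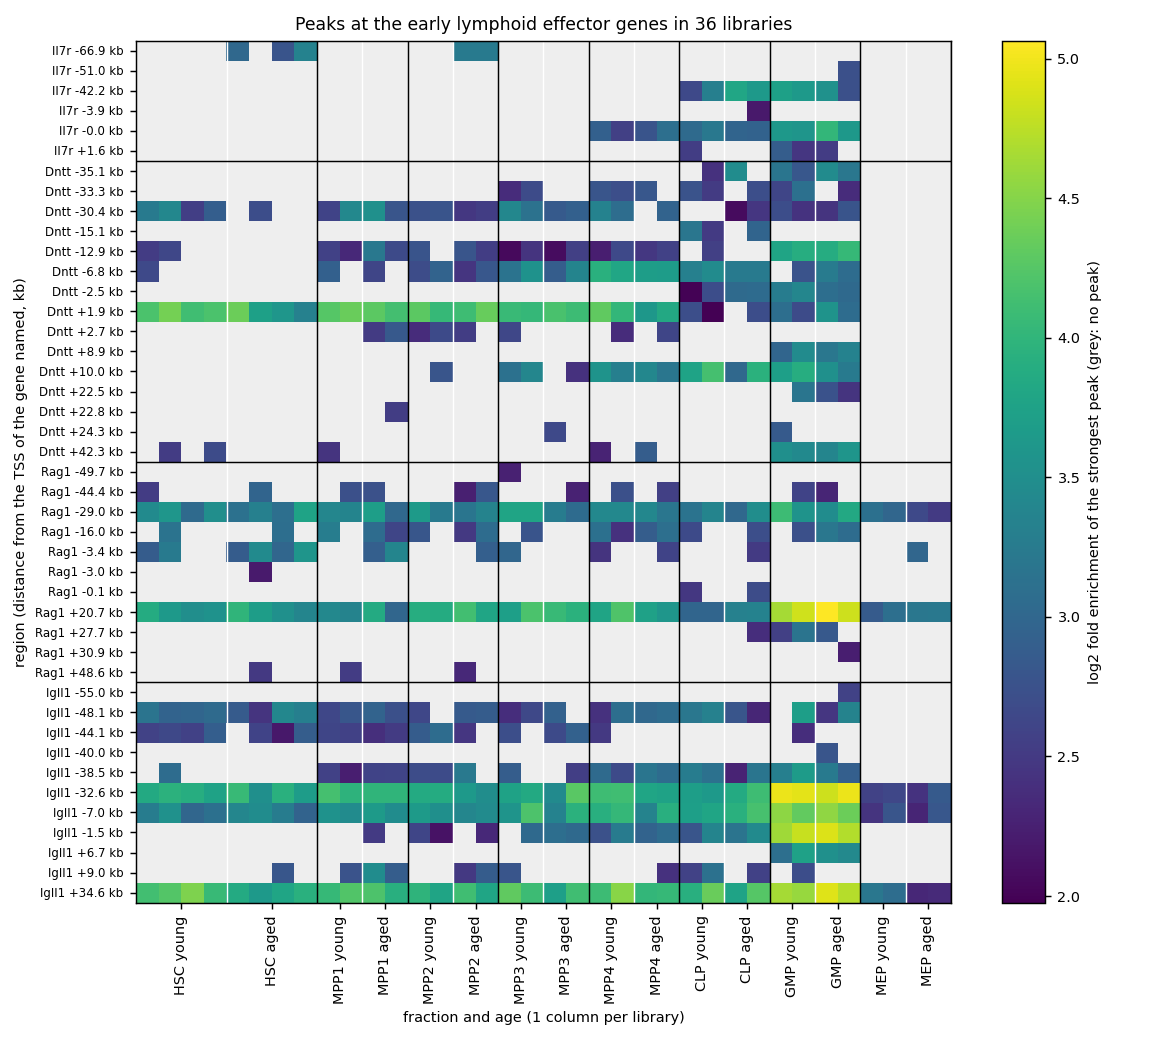
The 43 regions (rows, ordered by locus and by distance from the TSS in kb) in 36 libraries (columns, by fraction and age), with the log2 fold enrichment of the strongest peak by colour and grey where no peak was called. The Il7r promoter (row Il7r -0.0 kb) is filled in MPP4s, CLPs and GMPs alone, whereas Dntt +1.9 kb is filled in all libraries of HSCs and MPPs.

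Il7r, the cytokine receptor gene, had 6 regions and none was called in a young HSC or in any MPP1 or MPP3 library. The promoter region (chr15:9529595-9530125), which spans the TSS and is marked Il7r -0.0 kb in the plots, had a fold enrichment of 7.6 and 5.9 in young and 6.88 and 8.58 in aged MPP4s. In CLPs it was 8.22 and 9.28 (young) and 7.86 and 7.70 (aged), and in GMPs 12.3 and 12 (young) and 16.2 and 12.3 (aged). The MPP4 and CLP values overlapped, and no HSC, MPP1, MPP2, MPP3 or MEP library had a peak. Its summits lay from -52 to 35 bp around the TSS. GMPs and MPP4s were sorted as negative for the receptor and had promoter peaks all the same.

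Il7r -42.2 kb (chr15:9571857-9572269, intergenic) was called in CLPs and GMPs alone. In CLPs its fold enrichment was 6.29 and 9.95 (young) and 13.9 and 12.5 (aged), so the aged values were above the young ones. In GMPs it was 13.2 and 12.5 (young) and 11.6 and 6.61 (aged), with the aged values below. Summits in the 4 CLP libraries lay within -42264 to -42176 bp of the TSS.

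Il7r -66.9 kb (chr15:9596424-9597057), in an intron of the flagellar gene Spef2, had another pattern. It was called in aged HSC replicates 1, 3 and 4 (8.14, 6.89 and 10.2) and in both aged MPP2 libraries (9.53 and 9.41). No young library and no library of another fraction called it. The other 3 regions, Il7r +1.6 kb, Il7r -3.9 kb and Il7r -51.0 kb, were called in 4, 1 and 1 libraries, all of CLPs or GMPs.

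Rag1 and Rag2, the recombinase genes, are transcribed toward each other, with the TSS of Rag1 at 101649501 and that of Rag2 at 101624718 on chromosome 2. Only 1 region overlapped either TSS: Rag1 -0.1 kb (chr2:101649480-101649723), with a fold enrichment of 5.57 in young CLP replicate 1 and 6.49 in aged CLP replicate 2. No library of another fraction called it, GMPs included, and it lay at the 12.9th and 22.8th percentile of peaks in those 2 libraries. It was not past the threshold in CLPs against HSCs (50 points, adjusted p = 0.255, exact test). This region is also at a TSS of B230118H07Rik, which is closer to its centre. The nearest region to a Rag2 TSS, Rag1 +27.7 kb at another promoter of B230118H07Rik, ended 2821 bp away and was called in 3 GMP and 1 CLP libraries.

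Rag1 +20.7 kb (chr2:101628314-101629210), also a B230118H07Rik promoter, lies within the span of Rag2 and was called in all 36 libraries. Its fold enrichment was 7.90 and 7.94 in young and 10.1 and 10.2 in aged CLPs. MPP4s had 13.7 and 18.6 (young) and 13.4 and 12.2 (aged), and HSCs ranged from 10.5 to 15.9 with a median of 12.1. GMPs had 25.2 to 33.5 and MEPs 7.28 to 9.29. Of the 5 regions called in all libraries it was the one that passed as lower in MPP4s and CLPs (log2 difference -0.40 ± 0.08 SE, limma adjusted p = 0.000404). This difference set the mean of MPP4s and CLPs against the mean of the other fractions. Each fraction weighed the same within its side, and age was a term of the model. The MPP4 mean (14.5) was above those of HSCs (12.6), MPP1s (10.9) and MEPs (8.61), and the CLP mean was 9.03. CLP values lay below all HSC and MPP4 values and overlapped those of MPP1s and MEPs. Without GMPs the log2 difference was -0.31 (limma adjusted p = 0.00989).

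The Rag locus had 11 regions. Traf6, a signalling adaptor gene, holds Rag1 -29.0 kb in all 36 libraries at 5.64 to 17. Rag1 -3.4 kb (chr2:101652661-101653167, intergenic), upstream of Rag1, was called in 14 libraries, 6 of 8 HSC, 2 MPP1, 1 MPP2, 1 MPP3, 2 MPP4, 1 CLP, 0 GMP and 1 MEP, at 5.43 to 12. It was in 4 young and 10 aged libraries. Rag1 -16.0 kb was called in 18 libraries at 5.36 to 9.75, and Rag1 -44.4 kb in 11.

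Dntt, the terminal transferase gene, had 15 regions, and none overlapped its TSS. The closest, Dntt +1.9 kb (chr19:41030947-41031570, intron), ended 1565 bp away. It was called in 31 libraries and was the most open of the Dntt regions in HSCs, at 10.1 to 21.4 with a median of 17.8. MPP1s had 17.7 to 20.5, MPP2s 16.5 to 20.3, MPP3s 16.4 to 18.1 and MPP4s 12.2 to 19.8. CLPs had 6.56 and 3.93 (young) and 6.51 in aged replicate 2, with no peak in aged replicate 1. GMPs had 6.39 to 11.8 and MEPs no peak. The CLP values lay below every HSC and MPP value.

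Dntt +10.0 kb (chr19:41039169-41039510, intron) ran the other way. No HSC or MPP1 library called it, young MPP2 replicate 2 had 6.93, and MPP3s had 8.77 and 10.5 (young) and 5.35 (aged replicate 2). MPP4s had 11.8 and 9.94 (young) and 10.6 and 9.11 (aged), CLPs 13.6 and 17.7 (young) and 8.10 and 15.4 (aged), and GMPs 13.2, 14.9, 11.5 and 9.54. The MPP4 and CLP values overlapped. The summits were at 9918 to 9980 bp in CLPs and 9929 to 9959 bp in MPP4s.

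Dntt -2.5 kb (chr19:41026581-41026920, intergenic) was the region of CLPs and GMPs alone that lay nearest to the TSS. CLPs had 4.00 and 6.54 (young) and 8.25 and 8.32 (aged), and GMPs 9.67 and 10.5 (young) and 8.55 and 8.18 (aged). The weakest of these, in young CLP replicate 1, stood at the 0.95th percentile of that library's peaks.

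Dntt -6.8 kb (chr19:41022154-41022702, intergenic) was called in all MPP2, MPP3, MPP4 and CLP libraries. It had 15.3, 14, 12.9 and 12.9 in MPP4s, 10.0, 11.0, 9.54 and 9.45 in CLPs, 7.37 to 11.8 in MPP3s and 5.47 to 7.78 in MPP2s. The MPP4 values lay above those of HSCs, the other MPPs and CLPs at this region, and MPP3 and CLP values overlapped. Only 1 of 8 HSC libraries called it, at 6.29. It did not pass against HSCs in MPP4s (87.5 points, adjusted p = 0.119, exact test), yet with peaks of a -log10 q of at least 10 alone, and with the strongest 9581 peaks alone, it passed in MPP4s.

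Dntt -12.9 kb was called in 22 libraries. GMPs had 13.7 to 16.5 and the other libraries that called it 4.17 to 9.28, on scales that differ as said above. Only 1 CLP library called it. Upstream, Dntt -35.1 kb at the promoter of Blnk, an adaptor of B cell receptor signalling, was called in 2 CLP and 4 GMP libraries at 5.33 to 11.2. Dntt -33.3 kb, beside it, was called in 2 MPP3, 3 MPP4, 3 CLP and 3 GMP libraries. Dntt -15.1 kb was called in 3 CLP libraries and in no library of another fraction. It did not pass in CLPs against HSCs (75 points, adjusted p = 0.0857, exact test).

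**Figure D4:**
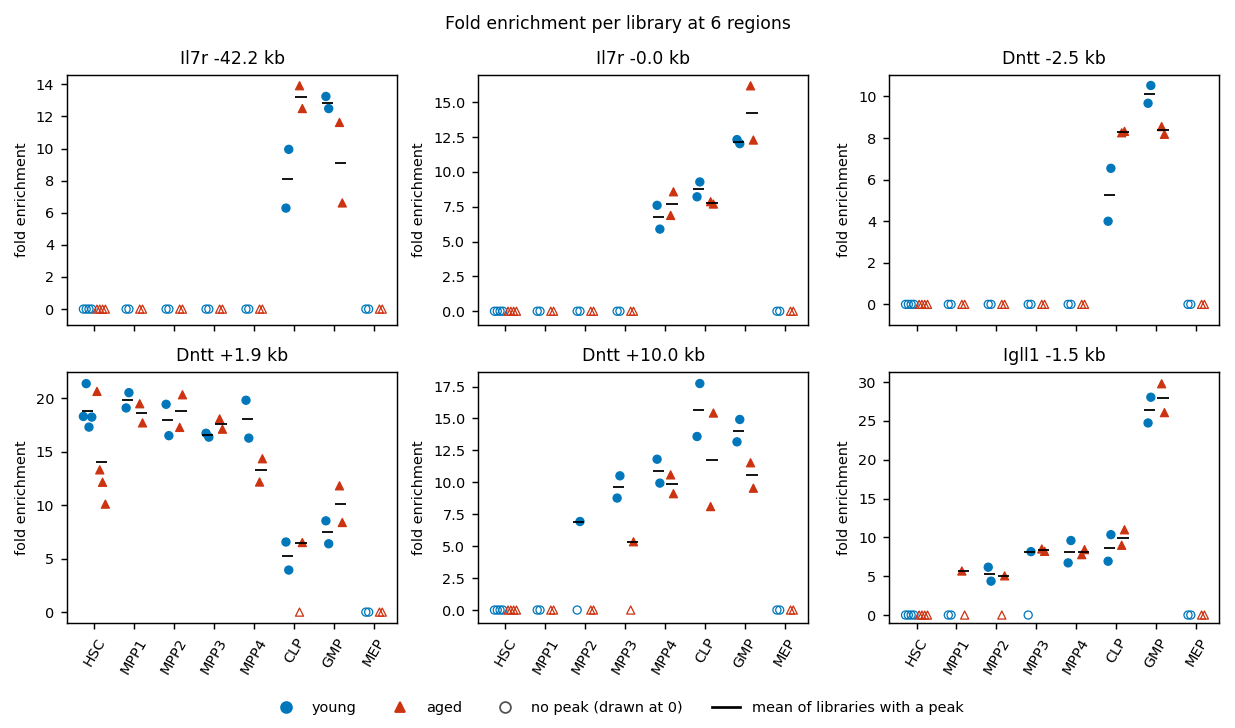
Fold enrichment per library (vertical axis, linear) by fraction at 6 regions, young as circles and aged as triangles, with open symbols at 0 for libraries without a peak and bars for the mean of libraries with one. Dntt +1.9 kb has 10.1 to 21.4 in HSCs and at most 6.56 in CLPs, while the other 5 regions have no peak in HSCs.

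Vpreb1 and Igll1, which encode the surrogate light chain, are neighbours on chromosome 16 and shared 11 regions. None overlapped a TSS of either gene. Igll1 -1.5 kb (chr16:16865207-16865714, intergenic, between the genes) had its near edge 1222 bp from the Igll1 TSS. No HSC or MEP library called it. It had 5.67 in aged MPP1 replicate 1, 6.16 and 4.36 in young and 5.04 in 1 aged MPP2, and 8.16 in 1 young and 8.51 and 8.20 in aged MPP3. MPP4s had 6.72 and 9.59 (young) and 7.77 and 8.42 (aged), CLPs 6.93 and 10.3 (young) and 8.98 and 11.0 (aged), and GMPs 24.7, 28, 29.8 and 26.1. MPP3, MPP4 and CLP values overlapped. In GMPs the region stood at the 95.4th to 98.4th percentile of peaks, and in CLPs at the 33.5th to 66.4th.

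The other 2 regions nearest to Igll1 were Igll1 +6.7 kb, in all 4 GMP libraries (8.62 to 13.4) and no other, and Igll1 +9.0 kb, in 12 libraries of 7 fractions at 5.33 to 11.2. The region closest to the Vpreb1 TSS, at 1289 bp, was Igll1 -7.0 kb (chr16:16870544-16871373), in an untranslated exon part of Top3b, a topoisomerase gene. It was called in all 36 libraries. The mean of MPP4s and CLPs was higher than the mean of the other fractions (log2 difference 0.26 ± 0.08 SE, limma adjusted p = 0.0241). CLPs had 13.1, 13.9, 15.3 and 18 and MPP4s 15.2, 16.4, 10.3 and 15.2, of which 1 value lay in the HSC range of 7.75 to 11.6, while MPP3s had 10.2 to 18.5, across the MPP4 and CLP values, GMPs 20.0 to 23.5 and MEPs 4.91 to 7.03. Of 5335 regions called in all libraries, 10% passed in either direction, 231 higher and 304 lower. Without centring on the library median these were 650 and 113, and both regions kept their direction and call. The call at Igll1 -7.0 kb was lost without any 1 of 5 libraries (young MPP4 replicates 1 and 2, aged MPP4 replicate 2 and aged CLP replicates 1 and 2).

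How far age changed these regions was asked over all fractions and within 3 of them. With fraction as stratum, 0 of 33 regions tested differed in calls, where 0% of 85292 regions did, and 1169 of these had an unadjusted p under 0.05. At the 6 genes 2 regions had an unadjusted p under 0.05, Il7r -66.9 kb (p = 0.0238, exact stratified test, 0 young and 5 aged libraries) and Dntt -33.3 kb (p = 0.0417, exact stratified test, 8 young and 3 aged), each with an adjusted p of 1. Rag1 -3.4 kb had 4 young and 10 aged libraries (p = 0.0779, exact stratified test). Young HSC libraries called 4, 4, 2 and 3 of the Dntt regions and aged ones 1, 2, 1 and 1, so the groups met at 2. The same libraries called 32.3%, 35.6%, 25.4% and 26.7% (young) and 29%, 29.2%, 29.4% and 28.4% (aged) of the whole catalogue, and the 2 young libraries with 4 Dntt calls were those with the most calls in all. The young calls beyond Dntt +1.9 kb were at Dntt -30.4 kb (4 libraries), Dntt -12.9 kb (2), Dntt +42.3 kb (2) and Dntt -6.8 kb (1), against 1 aged call at Dntt -30.4 kb. This pattern was not tested as a whole.

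The fold enrichment of regions called in every library of a fraction was compared with limma. In HSCs 0 of 7 regions passed, against 0.0461% of 17340, and 2 had an unadjusted p under 0.05. Igll1 +34.6 kb, the Spag6l promoter, had 17.5, 18.9, 22.2 and 16.7 in young and 14.6, 12.4, 13.8 and 15.3 in aged HSCs, with every aged value below every young one (log2 difference -0.40 ± 0.13 SE, limma adjusted p = 0.336). Dntt +1.9 kb had 18.3, 21.4, 17.3 and 18.2 in young and 20.6, 13.3, 12.1 and 10.1 in aged HSCs, a log2 difference of -0.45 ± 0.16 SE that did not pass (limma adjusted p = 0.407). Replicate 1 of the aged group stood with the young libraries. In MPP4s 0 of 14 regions passed, against 0% of 23464, of which 1401 had an unadjusted p under 0.05 and none of the 14 did. There Dntt +1.9 kb differed by -0.33 ± 0.18 SE (limma adjusted p = 0.853), with both aged values below both young ones.

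In CLPs 0 of 13 regions passed, against 0% of 21315, of which 1512 had an unadjusted p under 0.05. Of the 13 regions 4 did, namely Il7r -42.2 kb (log2 difference 0.74 ± 0.24 SE, aged higher), Dntt -2.5 kb (0.70 ± 0.27 SE), Igll1 -48.1 kb (-0.72 ± 0.27 SE) and Dntt +10.0 kb (-0.47 ± 0.21 SE), with limma adjusted p from 0.488 to 0.647. Young and aged values did not overlap at the first 3, and overlapped at Dntt +10.0 kb.

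**Figure D5:**
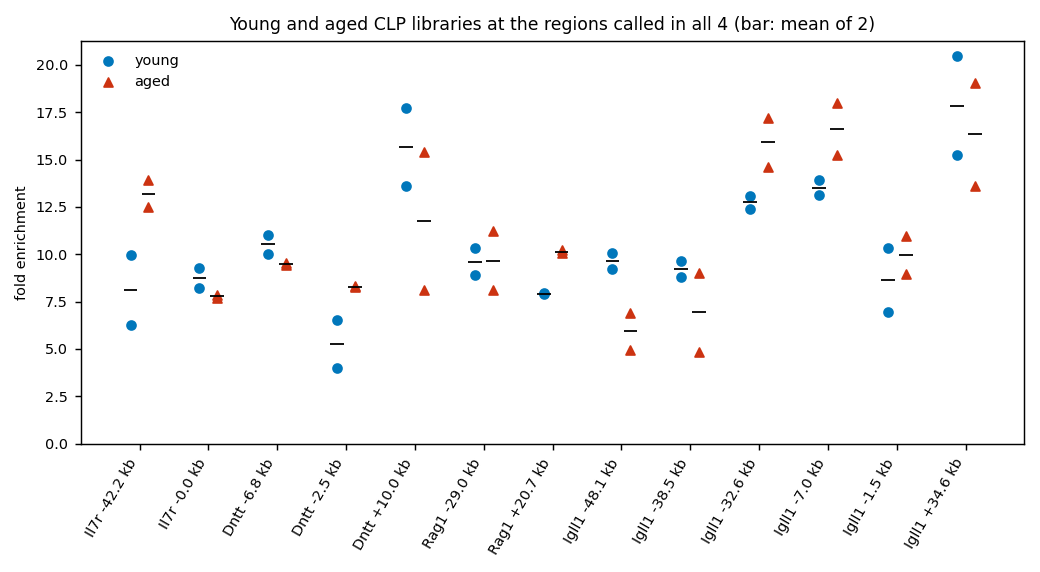
Fold enrichment (vertical axis) in the 2 young and 2 aged CLP libraries at the 13 regions called in all 4, with bars for the mean of each age. Among others, both aged values lie above both young ones at Il7r -42.2 kb and Dntt -2.5 kb and below them at Igll1 -48.1 kb, and 0 of the 13 differences passed.

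The promoter regions most like those of the genes over the 36 libraries, of 19122 compared, were ranked by Pearson's r of log2 fold enrichment with 0 where no peak was called, a measure led by which libraries had a peak. For the Il7r promoter these were Trabd (r = 0.998), Siglech (0.989) and Gbp10 (0.984), each called in 12 libraries. For Dntt +1.9 kb they were Fhl1 (0.943), F2rl3 (0.942) and Hsd11b2 (0.941). For Igll1 -1.5 kb they were Cyth1 (0.910), Sorbs3 (0.901) and Jaml (0.898). Rag1 -0.1 kb, called in 2 libraries, was matched by any promoter called in the same 2.

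Other genes of these pathways were counted at the regions nearest to their TSSs, in CLPs against HSCs. Of 12 V(D)J recombination partners, among them end-joining factors and the DNA-bending RAG cofactors Hmgb1 and Hmgb2, 4 of 26 regions tested were called more often in CLPs and 2 less often, the 4 being 2 at Hmgb1, 1 at Xrcc5 and 1 at Xrcc6. Of 13 IL-7 receptor signalling genes, 7 of 89 regions were called more often and 5 less often, with 3 at Foxo1, 2 at Bcl2, 1 at Stat3 and 1 at Pik3cd. Of 15 pre-B receptor and early B genes, 9 of 78 were called more often and 3 less often, with 3 at Syk, 2 at Ebf1, 2 at Lef1, 1 at Blk and 1 at Pax5. Of 14 lymphoid regulators, 13 of 172 were called more often and 9 less often, including 4 at Runx1, 3 at Foxo1, which is in 2 lists, and 2 at Ets1. The shares called more often were 15.4%, 7.87%, 11.5% and 7.56%, beside the 7.63% of the catalogue. Those called less often were 7.69%, 5.62%, 3.85% and 5.23%, beside its 4.77%. The median differences were 18.8, -12.5, 25 and -12.5 points, beside -12.5 for the catalogue. By age 0 regions of any of the 4 lists passed.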

How the data were processed

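ATAC-seq was performed by the authors on 36 libraries (single reads of 60 bp, fragments of 240 to 360 bp). Their methods state alignment to mm10 with Bowtie2. Mapped reads were subsampled with SAMtools to the same number per library, and peaks were called per library with MACS2 2.2.6 without its model at a fixed q-value limit. The deposited lists give a fold enrichment (a ratio to the local background), -log10 p-value and -log10 q-value and a score per summit. Without counts of reads the study's own count model could not be applied, depth is not known from them, and a missing peak does not show closed chromatin.

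Entries that shared an interval, 1 per summit, were counted as 1 peak, which made 1204561 peaks of 1358077 entries. A region was called where a peak of the library overlapped it by at least 1 bp, and its level is the highest fold enrichment. Coordinates are counted from 1. TSSs came from GENCODE M21. Calls were tested with Fisher's exact test, or an exact test stratified by fraction for age, and levels with limma 3.58.1 (R 4.3.3) on log2 fold enrichment centred on the library median, all fitted over the whole catalogue, with Benjamini-Hochberg adjustment and a threshold of 0.05. The analysis used Python 3.11.15, NumPy 2.4.6, SciPy 1.17.1 and pandas 2.3.3. Its functions were run on simulated data with known differences. Calls of MPP4s and CLPs against the others recovered 96% of changed regions. Calls of CLPs against HSCs recovered 100%, which was fixed by simulating peaks in all CLP and no HSC libraries. Fold enrichment in aged against young HSCs recovered 76.5% at a log2 change of 1.

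Named regions were those within 1 kb of a TSS of the genes, those past the threshold in any comparison, and per gene the 3 nearest-assigned regions called in most libraries; the others named were chosen after their values were seen. Genome sequence was equal to the RefSeq promoter table for the 6 genes. The genes, lists and tests were chosen with earlier results of these data known. Alternatives were stricter peaks, 50% coverage, equal numbers of peaks, other windows and scalings, and leaving out libraries or fractions.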

Additional observations from a re-analysis of the deposited data

Results flagged for a closer look

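At 8 of the 43 regions the fold enrichment of all aged libraries lay above all young ones in some fraction and below them in another. All 8 were among 16 regions called in every library of at least 2 fractions, and 28% of 30756 such regions of the catalogue had the same pattern, with no account taken of how many fractions each region was called in. The difference between the fractions was not tested, and each separation rests on 2 libraries per age (4 in HSCs). The log2 differences of aged from young given here are not centred on the library median, unlike those of the limma tests. With centring 6 regions showed this separation in both directions, 5 of the 8 and Igll1 -48.1 kb (0.40 in MPP4s and -0.72 in CLPs). At Igll1 +34.6 kb, Igll1 -7.0 kb and Rag1 +20.7 kb the separation no longer held in both directions, while the differences kept opposite signs. At Il7r -42.2 kb the difference was 0.74 in CLPs and -0.55 in GMPs. At Dntt -2.5 kb it was 0.70 in CLPs and -0.27 in GMPs. At Dntt +1.9 kb it was 0.088 in MPP3s and -0.44 in MPP4s, or 0.22 and -0.33 with centring. At Igll1 -32.6 kb, the Ppm1f promoter, it was 0.32 in CLPs, -0.30 in MPP2s and -0.34 in MPP4s, or -0.22 in MPP4s with centring. At Igll1 -38.5 kb, a Ppm1f intron, it was 0.19 in MPP1s, 0.27 in MPP4s and -0.41 in GMPs, or 0.38 in MPP4s with centring. At Igll1 +34.6 kb, the Spag6l promoter, it was 0.20 in GMPs, -0.42 in HSCs, -0.27 in MPP4s and -0.80 in MEPs, or -0.16 in MPP4s with centring. At Igll1 -7.0 kb, the Top3b region, it was 0.29 in CLPs, -0.16 in MPP2s and -0.34 in MPP4s, or -0.23 in MPP4s with centring. At Rag1 +20.7 kb, the B230118H07Rik promoter, it was 0.36 in CLPs, 0.23 in MEPs and -0.33 in MPP4s, or -0.21 in MPP4s with centring.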

How the results depend on the processing

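In MPP4s and CLPs against the other fractions 2 of 38 regions tested were called more often (2.39% of the catalogue). With peaks covering at least 50% of the region 4 of 43 were (2.67% of the catalogue). With equal numbers of peaks 1 of 11 was (Dntt -6.8 kb, 3.73% of the catalogue). Without MEPs 1 of 38 was (1.24% of the catalogue), and without GMPs 7 of 31 were (7.13%). In young or aged libraries alone 0 were (0% of the catalogue), and with any 1 library left out 1 to 2 were. In CLPs against HSCs 5 were, and 0 of 8 with equal numbers of peaks (7.43% of the catalogue), 0 with HSC replicates 1 and 2 only, 0 with replicates 3 and 4 only (0% of the catalogue each) and 5 to 7 with 1 library left out, with 0 to 1 called less often (1 without aged HSC replicate 1). Alternatives added after seeing the data put GMPs (13, or 1 with equal numbers of peaks) or MPP3s (0) in place of CLPs. In MPP4s against HSCs 3 were called more often. With equal numbers of peaks all 3 lost their call, and 1 of 4 regions tested passed (Dntt -6.8 kb, against 3.36% of the catalogue). The count was 0 with either pair of HSC replicates (0% of the catalogue) and 0 to 4 with 1 library left out. Fewer libraries raise the smallest p an exact test can give; other causes were not tested. For fold enrichment 1 region was higher and 1 lower, and 11 and 4 of 43 with regions called in any library (1 where not called), where 13.7% and 16.7% of the catalogue were; the higher count was 0 to 1 with 1 library left out. The 43 regions became 27 with a window of 20 kb and 19 by the nearest TSS alone. Over the 4 alternatives run, the number of regions ranged from 19 to 59. The age counts stayed at 0 under every alternative run. Within a fraction, same-numbered young and aged libraries had correlations of -0.08 to 0.18, so no pairing of the ages was seen. Whether same-numbered libraries of different fractions came from 1 marrow pool was not examined. With a replicate block the 3 counts of calls were 1, 0 and 0 (0.608%, 0% and 0% of the catalogue). In CLPs or MPP4s against HSCs that block left 1 library per fraction in each stratum, so no region could pass. The counts for fold enrichment did not change. Read counts were not analysed here, so a weak opening below the peak threshold was not detectable.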
